A study of Homo sapiens with 6 samples.

Results

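ATF4 and unfolded protein response genes are 39 genes chosen by symbol for their roles in endoplasmic reticulum (ER) stress and amino acid shortage, out of 62700 genes in the RNA–Seq tables. They comprise 4 sensors, 6 transcription factors, 5 target genes of ATF4 and CHOP, 4 enzymes of amino acid synthesis, 3 amino acid transporter genes, 3 tRNA synthetases, 4 genes of ER-associated degradation and 10 genes of ER folding. Levels were compared between 3 libraries of control SK-Hep-1 cells and 3 libraries of SK-Hep-1 cells with knockdown of *RAB30-DT*, a long non-coding RNA. SK-Hep-1 is a line grown from a human liver tumour, which the study calls endothelial-derived. Knockdown cells carried a short hairpin RNA (shRNA) against *RAB30-DT*, delivered by lentivirus and kept by puromycin selection. The methods of the study also describe control vectors packaged into lentivirus. Control cells are titled shControl but their genotype is given as wild type, so that the share of the vector or of selection in any difference cannot be told apart. The sample titles number the knockdown libraries as replicates of 1 group, whereas the table columns are headed sh1, sh2 and sh3. The methods of the study name only hairpins sh1 and sh2 against *RAB30-DT*. Replicates of 1 hairpin and libraries from more than 1 hairpin cannot be told apart. The labels do not say whether the libraries came from separate cultures, and the p-values therefore measure the spread between these 6 libraries only.

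Unfolded proteins in the ER are sensed by the membrane proteins IRE1α (gene *ERN1*), PERK (*EIF2AK3*) and ATF6. PERK, and the amino acid sensor GCN2 (*EIF2AK4*), phosphorylate the translation factor eIF2α, which lowers protein synthesis in general while the mRNA of the transcription factor ATF4 is translated more. IRE1α splices the mRNA of *XBP1* and ATF6 is cut by proteases, so most of the signalling takes place on proteins and on a splice site that gene-level RNA values cannot show. ATF4 is known for inducing amino acid synthesis, amino acid transport and tRNA synthetases together with the stress factors CHOP (*DDIT3*), *ATF3* and *TRIB3*, whereas XBP1 and ATF6 induce chaperones, folding enzymes and the degradation machinery of the ER.

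Levels are transcript shares corrected for gene length and brought to the same sum in all libraries (TPM). Such values hold no number of reads, so depth and counting error are unknown. Between 20127 and 21675 genes per library had a value above 0. Fold changes are differences in log2(TPM + 1), knockdown minus control, which understate the change of genes with low values. They were fitted with limma over 14020 genes whose mean reached 1 TPM. A gene was called where p, after Benjamini–Hochberg adjustment, was under 0.05. *RAB30-DT* itself was 18.2, 11.5 and 13.9 TPM in the control libraries and 11.9, 10.9 and 6.5 TPM in the knockdown libraries. Its levels overlapped between the groups, with a log2 fold change of −0.55 (standard error 0.27, adjusted p = 0.355 in limma and p = 0.2 in a two-sided exact permutation test, which could give no p below 0.1). The hepatocyte genes *ALB*, *APOB*, *TTR* and *HNF4A* were at 0 TPM in every library, and *APOA1* and *FGB* stayed at or below 0.46 TPM. *AFP* was at 0.41 to 1.63 TPM and *SERPINA1* at 18.1 to 37.2 TPM. Of 7 endothelial markers only *ENG* passed the filter, at 62.2 to 85.1 TPM, while *KDR*, *PECAM1*, *CDH5*, *TEK* and *VWF* stayed at or below 0.36 TPM and *TIE1* reached 3.08 TPM in 1 library. The mesenchymal gene *VIM* was at 3793 to 4784 TPM. The other mesenchymal markers were lower, with *THY1* at 76.0 to 148 TPM and *FN1* at 12.8 to 22.8 TPM. *CDH2* was at 1.77 to 5.54 TPM and *COL1A1* at 0.59 to 2.41 TPM, while *COL1A2* stayed at or below 0.12 TPM. *SERPINA1* and *VIM* were above the controls in every knockdown library and the mesenchymal marker *THY1* below them (limma adjusted p = 0.192, 0.225 and 0.226), and the part of cell identity in the results was not tested.

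The regulatory sequences below describe promoter motifs of some of the genes. As the genes were chosen for known roles in the pathway, a motif share above that of all genes is no independent evidence. They were read from RefSeq promoter windows (GRCh38.p14, 250 bases before to 50 bases after a start site), which were found for 37 of the 39 genes, *PSPH* and *PDIA3* being without one. Both strands were searched for the ER stress response element ERSE (CCAAT and CCACG with 9 bases of any kind between them), bound by NF-Y together with ATF6 or XBP1, for ERSE-II (ATTGG and CCACG with 1 base between them), and for the C/EBP–ATF response element CARE (TGATGNAA), bound by ATF4 with a C/EBP partner. An ERSE was found for 5 of the 37 genes (13.5%), against 0.0916% of 27305 genes with a window. Capitals mark the bases that the motif fixes, and each sequence is given 5′ to 3′ on the strand of the match.
*XBP1* ERSE, chr22:28800598-28800626, minus strand: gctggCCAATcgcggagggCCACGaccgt
*CALR* ERSE, chr19:12938379-12938407, minus strand: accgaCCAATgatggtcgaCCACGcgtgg
*CANX* ERSE, chr5:179698773-179698801, plus strand: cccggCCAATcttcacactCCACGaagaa
*PDIA6* ERSE, chr2:10812848-10812876, minus strand: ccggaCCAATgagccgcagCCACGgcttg
*CRELD2* ERSE, chr22:49918549-49918577, minus strand: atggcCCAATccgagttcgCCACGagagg
By GENCODE annotation all of these lie outside the canonical transcript of their gene. Those of *PDIA6* and *CRELD2* are intronic and that of *CANX* is in a 5′ exon in other transcripts of the gene. All 5 genes had lower means in knockdown cells, at a median of −0.29 on the log2 scale (*CALR* and *PDIA6* not so after quantile normalization), and none was called.

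ERSE-II was found for *HERPUD1*, *SDF2L1* and *HYOU1*, or 8.11% of the 37 genes against 0.0696% of all genes with a window. *HYOU1* holds a pair of them upstream of its start site.
*HYOU1* ERSE-II, chr11:119057266-119057292, plus strand: gcgtactcATTGGaCCACGtcccaggc
*HYOU1* ERSE-II, chr11:119057372-119057398, plus strand: ggcctgggATTGGaCCACGtcacgggg
*SDF2L1* ERSE-II, chr22:21642106-21642132, minus strand: gggttttgATTGGtCCACGcttccgag
*HERPUD1* ERSE-II, chr16:56932017-56932043, plus strand: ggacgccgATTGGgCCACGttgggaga
These 4 sites lie outside every annotated transcript. Of the 3 genes, *HYOU1* and *SDF2L1* had lower means and *HERPUD1* a higher mean in knockdown cells.

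The shorter CARE was found for 8 of the 37 genes (21.6%), namely *ATF3*, *CHAC1*, *ASNS*, *SLC3A2*, *SLC7A1*, *AARS1*, *GARS1* and *HERPUD1*, against 4.46% of all genes with a window. The sites of 3 genes of amino acid supply and use and of a stress target are shown, since they include genes of both directions.
*ASNS* CARE, chr7:97872459-97872486, minus strand: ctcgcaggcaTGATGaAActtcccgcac
*SLC7A1* CARE, chr13:29595664-29595691, minus strand: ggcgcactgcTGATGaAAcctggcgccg
*AARS1* CARE, chr16:70289676-70289703, plus strand: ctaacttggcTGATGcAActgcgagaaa
*CHAC1* CARE, chr15:40953252-40953279, minus strand: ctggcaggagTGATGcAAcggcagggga
The site of *SLC7A1* lies at the 5′ end of the canonical transcript, in an untranslated exon, and the others lie outside the canonical transcript of their gene, in an untranslated exon of its other transcripts. That of *AARS1* also lies in a coding exon of another transcript of *DDX19B*, on the other strand from *AARS1*. Of the 8 genes, 6 were lower and 2 (*CHAC1* and *HERPUD1*) higher in knockdown cells, with a median of −0.13, and *ATF3* and *GARS1* were slightly above 0 after quantile normalization. With 1 library left out, 3 of the 6 turned positive, *ATF3* at 0.71 without control replicate 3 and *ASNS* and *GARS1* at 0.19 and 0.0580 without control replicate 1. A match is a description of these letters and was not tested for binding.

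Of the 39 genes, 38 passed the filter. *PSAT1*, the aminotransferase of serine synthesis, was at 0 TPM in every control library and at 0.08 TPM or less in the knockdown libraries, and was not tested. The levels of the other genes ranged from 1.35 TPM for *CHAC1* to 827 TPM for *CALR*, each in a control library. Of the 38 genes, 17 were higher and 21 lower in knockdown cells, where 53.7% of all 14020 genes were lower. Their log2 fold changes had a median of −0.10, against −0.04 over all 14020 genes. Only *GDF15* was called, 1 of 38 genes (2.63%), against 1.04% of all genes in either direction, 0.371% higher and 0.67% lower. An unadjusted p under 0.05 was reached by 12 genes (31.6%) against 16.8% of all genes. Of these, 3 were higher, against 7.06% of all genes, and 9 lower, against 9.7% of all genes. The groups did not overlap for 17 genes (44.7%) against 23.3% of all genes. The knockdown group was above for 5 of them (background 9.89%) and below for 12 (background 13.4%). The direction differed between the roles: all tested sensors, target genes of ATF4 and CHOP, and degradation genes had positive fold changes, whereas all tested genes of amino acid synthesis, transport and tRNA charging had negative ones, except that *GARS1* was at 0.0322 after quantile normalization and that *EIF2AK4*, *PPP1R15A*, *SEL1L*, *ASNS* and *GARS1* changed sign when 1 library was left out. On a second list of 73 genes with the same kinds of roles, targets, synthesis, transport and degradation genes were mixed in direction.

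**Figure D1:**
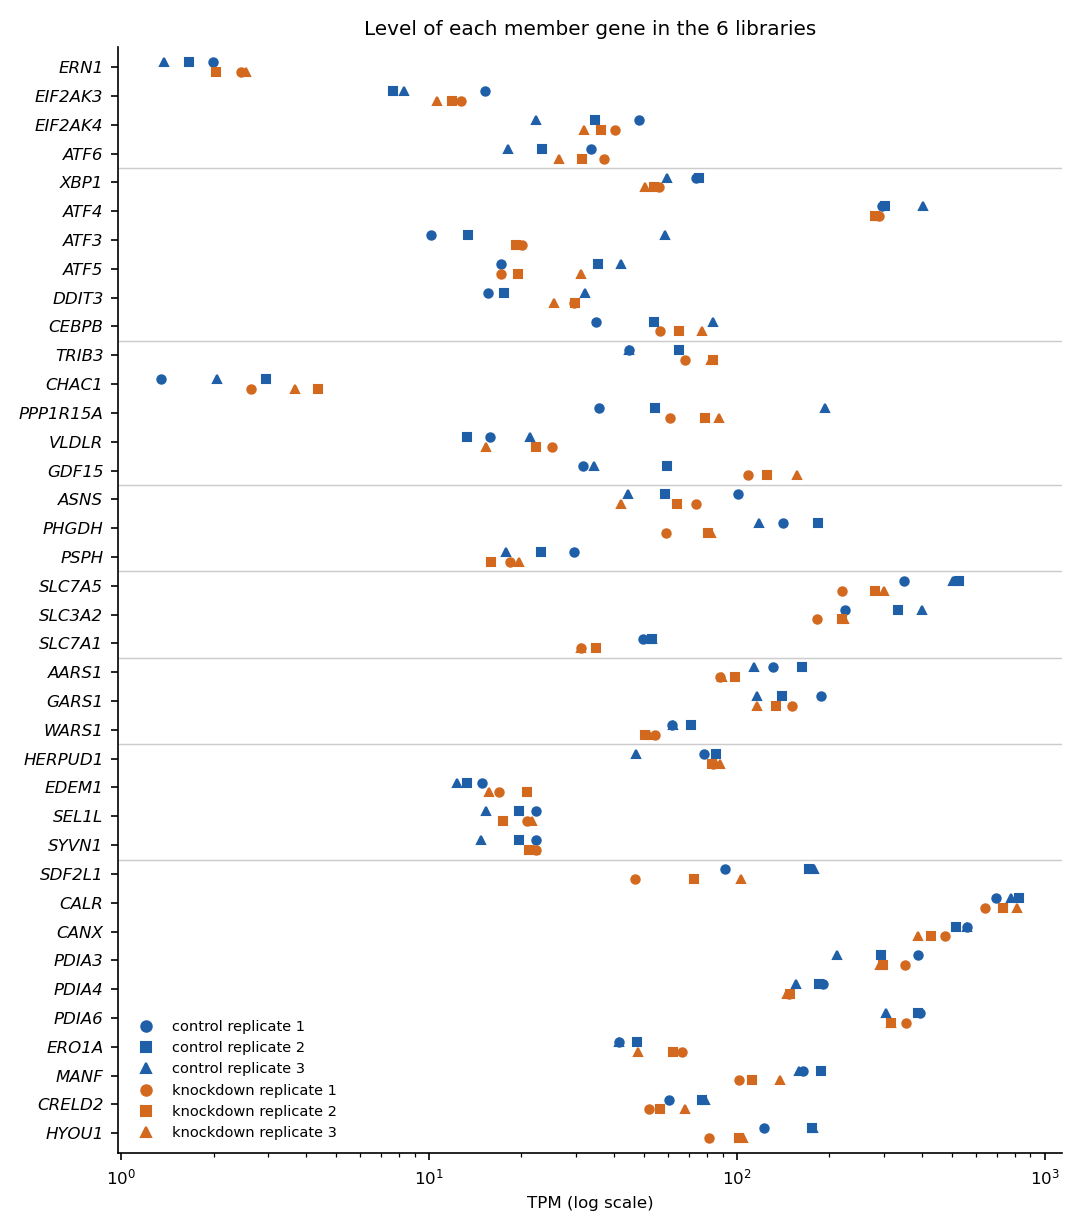
Level of the 38 tested genes in each library, in TPM on a log axis, with genes ordered by role from the sensors at the top to ER folding at the bottom. Blue points are control libraries, orange points knockdown libraries, and the marker shape gives the replicate. *GDF15* has the largest log2 fold change in size, at 31.7 to 59.6 TPM in control and 109 to 157 TPM in knockdown cells.

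The sensors were expressed at low to moderate levels and none was called. Values are given throughout in the order of replicates 1, 2 and 3. *ERN1* was at 1.99, 1.67 and 1.38 TPM in control cells and 2.46, 2.03 and 2.55 TPM in knockdown cells. The groups did not overlap, with a log2 fold change of 0.32 (limma adjusted p = 0.550). *ATF6* was at 33.5, 23.4 and 18.1 TPM in control cells and 37.1, 31.4 and 26.5 TPM in knockdown cells, with overlapping groups and a log2 fold change of 0.36 (adjusted p = 0.517), which was 0.16 without control replicate 3 and 0.59 without control replicate 1. For *EIF2AK3*, the gene of PERK, the levels were 15.2, 7.67 and 8.31 TPM against 12.7, 11.9 and 10.7 TPM, so that the highest and the lowest library were both controls. Its log2 fold change of 0.22 was 0.0535 with control replicate 2 left out and 0.50 with control replicate 1 left out. *EIF2AK4*, the gene of GCN2, had 48.2, 34.8 and 22.4 TPM against 40.4, 36.3 and 32.0 TPM. Its log2 fold change of 0.10 turned to −0.18 without control replicate 3. The median of the 4 sensors was 0.27.

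Among the transcription factors, *ATF4* mRNA was the most abundant, at 297, 303 and 403 TPM in control cells and 289, 281 and 284 TPM in knockdown cells. The knockdown libraries were all below the control libraries, by 0.22 on the log2 scale (SE 0.15, 95% interval −0.57 to 0.14, adjusted p = 0.524 in limma). This difference was −0.07 without control replicate 3 and 0.00 after quantile normalization. *XBP1*, the factor downstream of IRE1α, had 73.8, 75.5 and 59.3 TPM against 55.8, 53.8 and 50.2 TPM. Its groups did not overlap either, with a log2 fold change of −0.37 (adjusted p = 0.308). The files do not separate spliced from unspliced *XBP1*.

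*DDIT3*, which encodes the stress factor CHOP, had 15.6, 17.6 and 32.2 TPM in control cells and 29.5, 29.9 and 25.5 TPM in knockdown cells. Control replicate 3 was the highest library and control replicates 1 and 2 the lowest ones. The log2 fold change was 0.43 with all libraries (adjusted p = 0.470), 0.73 without control replicate 3 and 0.23 without control replicate 1. *DDIT3* overlaps *MARS1* and *MBD6* on the other strand, and as no strand-marking step is described for the libraries, reads from the overlap cannot be assigned with certainty. *ATF3*, an early stress-induced repressor, had 10.2, 13.4 and 58.6 TPM against 20.1, 19.2 and 19.7 TPM. Its knockdown libraries lay within 1 TPM of each other while control replicate 3 alone was above them, and the log2 fold change went from −0.04 to 0.71 without that library. *ATF5*, which is regulated by translation like *ATF4*, had 17.1, 35.5 and 42.2 TPM against 17.2, 19.5 and 31.2 TPM. *CEBPB*, a partner of ATF4, had 34.9, 54.0 and 83.7 TPM against 56.2, 64.9 and 77.1 TPM. The groups overlapped for both. *ATF5* had a log2 fold change of −0.42, which was −0.79 without control replicate 1 and −0.17 without control replicate 3. *CEBPB* had 0.27, which turned to −0.0382 without control replicate 1 and was 0.58 without control replicate 3. *ATF5* overlaps *NUP62* on the other strand, at a mean of 93.7 TPM, so the limit given for *DDIT3* holds for it too.

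**Figure D2:**
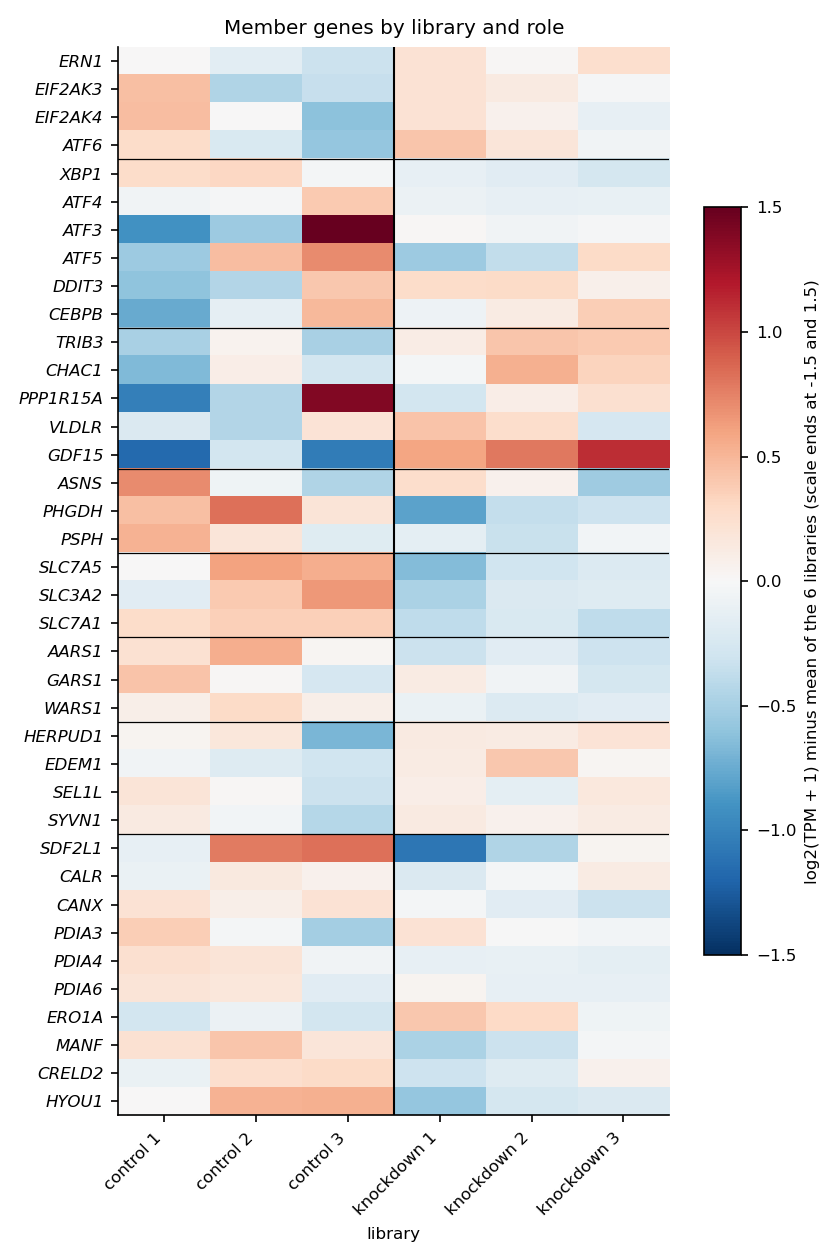
Level of the 38 tested genes in each library as log2(TPM + 1) minus the mean of the 6 libraries, red above and blue below that mean, with genes in rows by role and libraries in columns. Control replicate 3 holds the highest value of 10 genes and the lowest of 11, as seen for *ATF3* and *PPP1R15A*, while the 3 transporter genes are below their mean in every knockdown library.

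Control replicates 1 and 3 held most of the extreme values. Control replicate 1 was the highest of the 6 libraries for 11 of the 38 genes and the lowest for 7, and control replicate 3 the highest for 10 and the lowest for 11. These sum to 47.4% and 55.3% of the 38 genes, against 46.6% and 52.7% of all 14020 genes, so the 38 genes were close to the rest of the table here. Over the 38 genes, 30 had a larger SD on the log2 scale among the control libraries than among the knockdown libraries. The libraries also differed in how their levels moved with the GC content of the transcripts. The rank correlation of deviations with GC content over all tested genes was −0.61, 0.30 and 0.49 in the control libraries and −0.52, 0.02 and 0.33 in the knockdown libraries. With this trend removed from each library, 7 of the 38 genes were called in place of 1 (*GDF15* higher, and *PHGDH*, *SLC7A5*, *SLC3A2*, *SLC7A1*, *HYOU1* and *SDF2L1* lower), and 1286 of 14020 genes in place of 146.

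Target genes of ATF4 and CHOP held the gene with the largest difference. *GDF15*, a secreted stress cytokine, had 31.7, 59.6 and 34.5 TPM in control cells and 109, 125 and 157 TPM in knockdown cells. The lowest knockdown library was well above the highest control library. The control mean was 41.9 ± 15.3 TPM and the knockdown mean 131 ± 24.5 TPM (SD, n = 3 each), and *GDF15* rose by 1.66 on the log2 scale (SE 0.26, limma adjusted p = 0.0351). The adjusted p was 0.0300 without control replicate 1 and between 0.0507 and 0.164 without any one of the other 5 libraries, where the call was lost. The log2 fold change stayed between 1.49 and 1.93 in those fits.

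*TRIB3*, a pseudokinase induced by ATF4 and CHOP, had 44.7, 65.0 and 44.7 TPM in control cells and 68.1, 84.1 and 82.6 TPM in knockdown cells. The groups did not overlap and the log2 fold change was 0.61 (SE 0.20), which did not pass the threshold (adjusted p = 0.185). *CHAC1*, which degrades glutathione, was low, with 1.35, 2.96 and 2.06 TPM against 2.64, 4.38 and 3.68 TPM and a log2 fold change of 0.56 (adjusted p = 0.375), or 0.37 without control replicate 1. *PPP1R15A* encodes GADD34, which brings a phosphatase to eIF2α. It had 35.8, 54.2 and 194 TPM in control cells and 60.9, 78.8 and 87.4 TPM in knockdown cells, so that control replicate 3 exceeded all other libraries. The log2 fold change was 0.05 with all libraries, 0.75 without control replicate 3 and −0.45 without control replicate 1. The lipoprotein receptor gene *VLDLR*, which ranged from 13.3 to 25.1 TPM, overlapped between the groups at a log2 fold change of 0.29, which ran from 0.15 to 0.49 with 1 library left out.

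**Figure D3:**
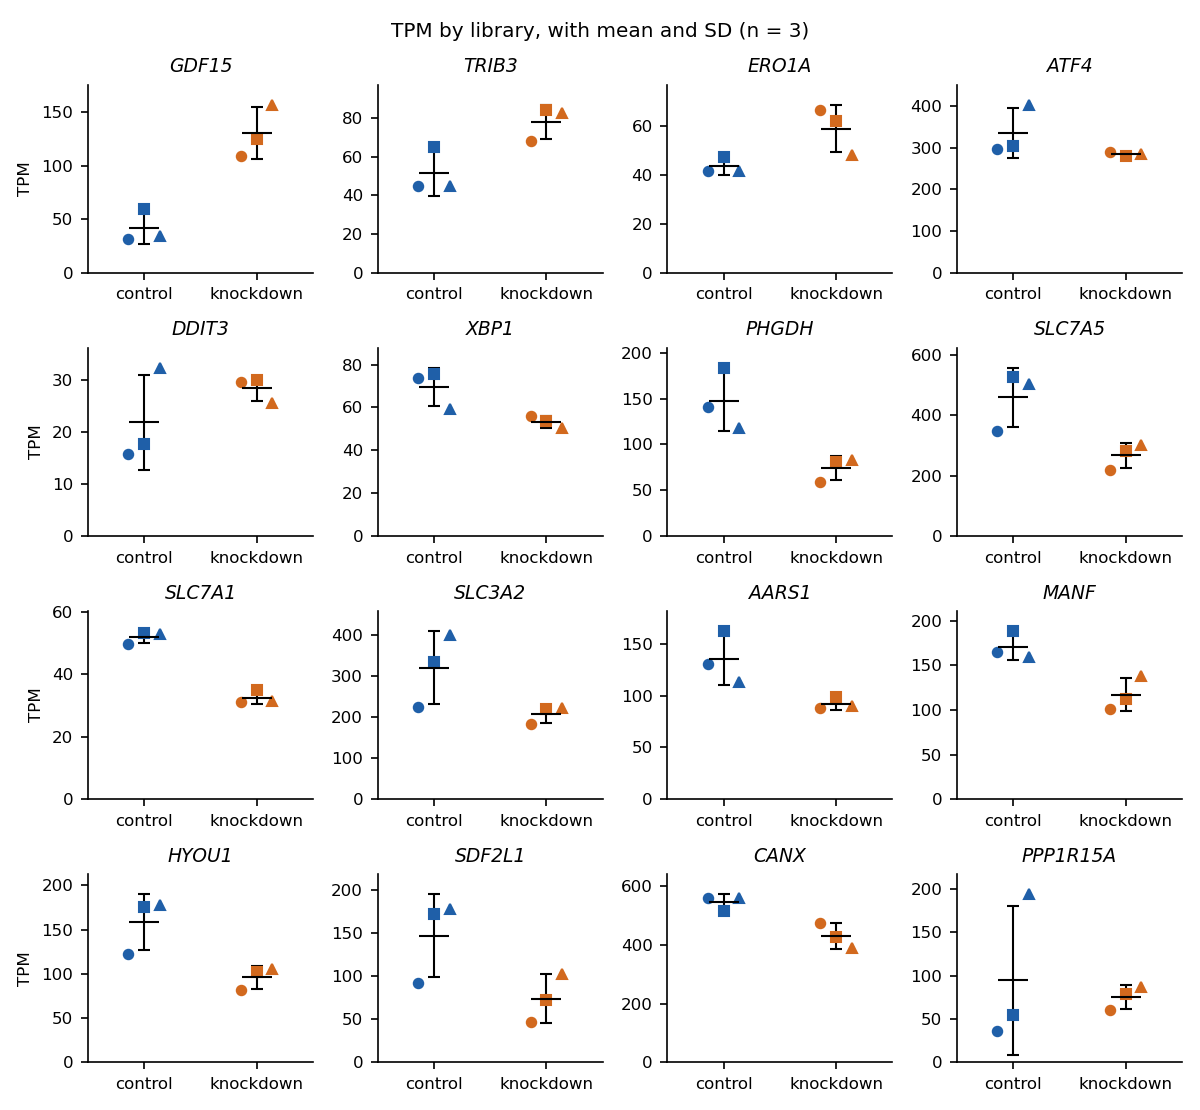
TPM by library for 16 of the genes, with blue control points, orange knockdown points, marker shapes for the replicates as in the plot of levels, and the mean with its SD (n = 3) in black; every axis starts at 0. *GDF15* and *TRIB3* are higher in all knockdown libraries, *PHGDH*, *SLC7A5*, *SLC7A1* and *SLC3A2* lower, and control replicate 3 lies above every other *PPP1R15A* point.

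Amino acid synthesis genes were lower or indistinct. *PHGDH*, the first enzyme of serine synthesis, had 141, 184 and 118 TPM in control cells and 58.8, 80.6 and 82.7 TPM in knockdown cells. The groups were well apart, at 0.507 times the control level on the TPM + 1 scale, or −0.98 in log2 (SE 0.22, 95% interval −1.47 to −0.48). It did not pass the threshold (limma adjusted p = 0.0820), and the adjusted p was 0.0384 after removal of GC trends. *PSPH*, the last enzyme of the same route, ranged from 17.8 to 29.7 TPM in control and from 15.9 to 19.7 TPM in knockdown cells, with a log2 fold change of −0.35, or −0.18 without control replicate 1 and −0.53 without control replicate 3. *ASNS*, the asparagine synthetase and a classical ATF4 target, had 101, 58.7 and 44.4 TPM against 73.7, 64.1 and 42.1 TPM. Its groups overlapped, and its log2 fold change of −0.13 turned to 0.19 without control replicate 1.

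The amino acid transporter genes were lower in every knockdown library than in any control library, and none passed the threshold. *SLC7A5* and *SLC3A2* encode LAT1 and CD98, which together form the transporter of large neutral amino acids. *SLC7A5* had 348, 528 and 504 TPM in control cells and 220.0, 281 and 301 TPM in knockdown cells, a log2 fold change of −0.77 (SE 0.20, limma adjusted p = 0.119). Its pseudogene copies *SLC7A5P2* and *SLC7A5P1*, at means of 7.26 and 1.81 TPM, may share reads with it. *SLC3A2* had 225, 334 and 400.3 TPM against 183, 219 and 222 TPM, a log2 fold change of −0.58 (adjusted p = 0.236). Its lowest control library was just above its highest knockdown library. For *SLC7A1*, the transporter of cationic amino acids, the libraries of a group lay close together, with 49.7, 53.1 and 52.9 TPM against 31.2, 34.9 and 31.3 TPM. Its log2 fold change of −0.66 (SE 0.15) kept within −0.71 and −0.63 when 1 library was left out, with an adjusted p of 0.0922 over all libraries. Summed over the 3 genes, TPM were 623 to 957 in control and 434 to 555 in knockdown libraries.

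The 3 tRNA synthetase genes, whose enzymes charge tRNA with alanine, glycine and tryptophan, had a median log2 fold change of −0.31. *AARS1* had 131, 163 and 114 TPM in control cells and 88.6, 99.1 and 89.7 TPM in knockdown cells, without overlap and with a log2 fold change of −0.53 (limma adjusted p = 0.180). *WARS1* had 61.8, 71.0 and 62.0 TPM against 54.3, 50.5 and 51.8 TPM, also without overlap (log2 fold change −0.31, adjusted p = 0.351). *GARS1* ranged from 116 to 188 TPM and overlapped between the groups, at −0.12. None of the 3 was called, and differences between the 3 genes were not tested.

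The ER-associated degradation genes had a median log2 fold change of 0.27 and none was called. *EDEM1*, a lectin that directs misfolded glycoproteins to degradation, had 14.8, 13.4 and 12.3 TPM in control cells and 16.9, 20.9 and 15.7 TPM in knockdown cells. Its groups did not overlap, at a log2 fold change of 0.37 (limma adjusted p = 0.371). *HERPUD1*, which organizes the degradation complex, ranged from 47.2 to 85.6 TPM in control and from 83.2 to 88.3 TPM in knockdown cells. The log2 difference was 0.32 with all libraries and 0.05 without control replicate 3, the library with 47.2 TPM. *SEL1L* and *SYVN1*, the adaptor and the ubiquitin ligase of the complex, were at 0.07 and 0.22, and *SYVN1* at 0.0597 without control replicate 3. *SYVN1* overlaps the far more abundant *FAU* on the same strand.

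The ER folding genes held the highest levels, and 8 of 10 had lower means in knockdown cells (median −0.27 on the log2 scale), of which *CALR* and *PDIA6* were slightly above 0 after quantile normalization. Summed over the 10 genes, TPM were 2646 to 2870 in control libraries and 2317 to 2420 in knockdown libraries, without overlap. These sums are of TPM without further scaling. After quantile normalization the log2 fold changes of the abundant *CANX* and *PDIA4* were −0.18 and −0.07. None passed the threshold. *HYOU1*, a chaperone that acts as exchange factor of BiP, had 122, 176 and 177 TPM in control cells and 81.5, 102 and 105 TPM in knockdown cells. Its groups did not overlap, with a log2 fold change of −0.71 (SE 0.20, limma adjusted p = 0.134). *MANF*, a secreted ER stress protein, had 165, 188 and 160 TPM against 101, 112 and 138 TPM, also without overlap (log2 fold change −0.55, adjusted p = 0.156). *SDF2L1*, a partner of ER J-domain proteins, had the lowest fold change of the 38 genes, −0.99 (SE 0.34, adjusted p = 0.203), but its groups overlapped, with 91.8, 172 and 178 TPM against 46.8, 72.8 and 103 TPM.

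*CANX*, the membrane lectin calnexin, had 561, 514 and 559 TPM in control cells and 475, 428 and 387 TPM in knockdown cells, without overlap (log2 fold change −0.34, limma adjusted p = 0.235). Its soluble relative *CALR*, calreticulin, ranged from 641 to 827 TPM over the 6 libraries and overlapped between the groups, at −0.08. Of the disulfide isomerases, *PDIA4* had 190.1, 185 and 156 TPM against 148, 149 and 146 TPM, without overlap (log2 fold change −0.25, adjusted p = 0.410). *PDIA6* and *PDIA3* overlapped, at −0.13 and 0.12, and *PDIA3* turned to −0.11 without control replicate 3. *CRELD2*, a secreted ER stress protein, overlapped at −0.29.

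*ERO1A*, the oxidase that recharges disulfide isomerases, was the exception among the folding genes whose groups stood apart. It had 41.5, 47.3 and 41.5 TPM in control cells and 66.7, 62.2 and 48.0 TPM in knockdown cells, with knockdown replicate 3 only just above the highest control library. The log2 fold change was 0.42 (SE 0.18, limma adjusted p = 0.294). *ERO1A* and *VLDLR* are also known as genes induced by the hypoxia-inducible factor HIF. In these libraries, a list of 15 HIF target genes had 13 tested, of which 11 were higher after knockdown. The median of the 13 on the log2 scale was 1.24, against −0.04 over all genes. Called were 6 (46.2%, against 1.04% of all genes), namely *PGK1*, *PFKFB4*, *BNIP3*, *KDM3A*, *PDK1* and *P4HA1*. The HIF list was chosen with earlier results of these data known, so this share is no independent evidence. *PFKFB3* (−0.22) and *ADM* (−0.56, or 0.09 without control replicate 3) were lower. The groups overlapped for both, and also for *SLC2A1* (0.23) and *LDHA* (0.18). *CA9* and *EGLN3* stayed at or below 0.1 TPM and were not tested. The part of HIF in the levels of *ERO1A* and *VLDLR* was not tested.

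**Figure D4:**
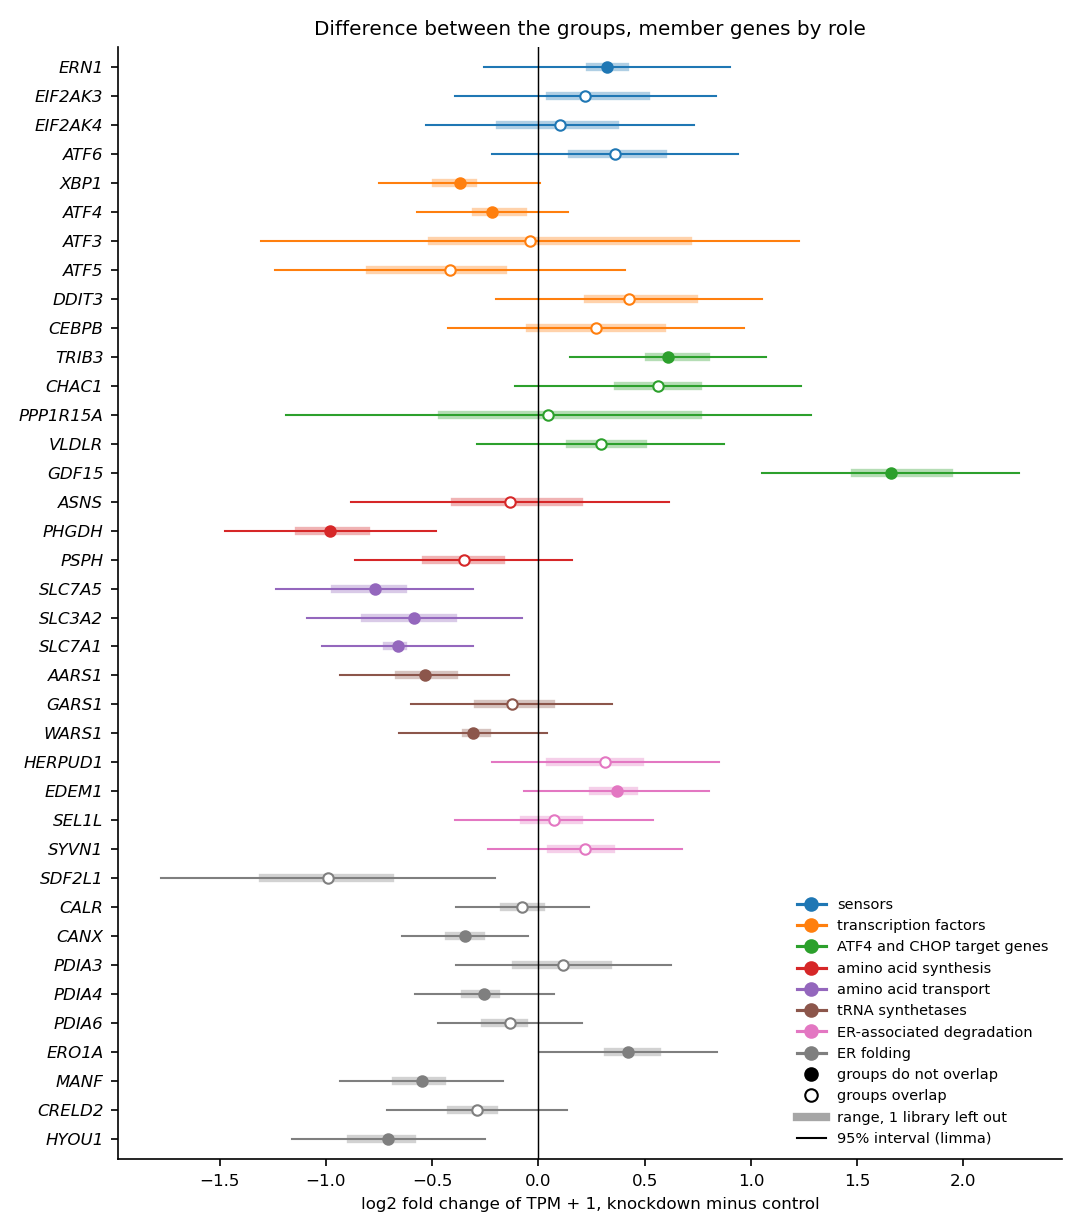
Log2 fold change of TPM + 1 for the 38 tested genes, knockdown minus control, coloured by role; thin lines are 95% intervals from limma, thick pale lines the range when 1 library is left out, and filled points genes whose groups do not overlap. Intervals exclude 0 for 12 genes, and the thick line of *GDF15* runs from 1.49 to 1.93.

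Of the 73 genes on the second list, which belong to the same pathways, 69 passed the filter. Of these, 29 were higher and 40 lower (median −0.07 on the log2 scale), where 53.7% of all genes were lower. Called were 2 (2.90%, against 1.04% of all genes). The groups did not overlap for 19 (27.5%, against 23.3% of all genes). *DDIT4*, an inhibitor of mTORC1 that is induced by ATF4 and also by HIF, rose from 76.2, 111 and 55.9 TPM to 189, 250.3 and 209 TPM, by 1.45 on the log2 scale (SE 0.25, limma adjusted p = 0.0433). *SESN2*, another ATF4-induced brake on mTORC1, had 8.31, 11.5 and 11.8 TPM against 19.4, 23.3 and 23.8 TPM, without overlap and with a log2 fold change of 1.01 (adjusted p = 0.0666). The call of *DDIT4* was kept without control replicate 1 (adjusted p = 0.0352) and lost without each of the other 5 libraries (0.0541 to 0.204).

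The chaperones did not move in 1 direction. *HSPA5*, which encodes the master ER chaperone BiP and carries an ERSE (chr9:125241386-125241414, minus strand, outside its transcripts), had 676, 641 and 575 TPM in control cells and 532, 512 and 505 TPM in knockdown cells, with a log2 fold change of −0.29 (limma adjusted p = 0.282). After quantile normalization its log2 fold change was −0.07.
*HSPA5* ERSE: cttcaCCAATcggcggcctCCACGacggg
An ERSE was also found for *HSP90B1* (a pair of sites) and *ERO1B*, so that of the 3 genes of the second list with one, 1 was lower and 2 higher, with a median of 0.08. *HSP90B1*, the ER form of HSP90, had 799, 550 and 374 TPM against 700.4, 566 and 486 TPM and overlapped between the groups, and its log2 fold change of 0.08 turned to −0.20 without control replicate 3. *ERO1B*, a relative of *ERO1A*, overlapped at 0.11. *DNAJB9*, a BiP cochaperone induced by XBP1 that represses IRE1α, had 15.2, 12.6 and 8.30 TPM against 30.4, 25.9 and 25.6 TPM, a log2 fold change of 1.15 (adjusted p = 0.0704). It was called with median-of-ratios scaling (adjusted p = 0.0465), quantile normalization (0.0388), GC trends removed (0.00651) and arrayWeights (0.00243). It was also called with a replicate block (0.0255), with the block and GC trends removed (0.0251) and without control replicate 1 (0.0284). It was not called without any one of the other 5 libraries (0.0695 to 0.273). *DNAJB11*, a BiP cochaperone that assists folding, fell from 65.7, 67.2 and 57.6 TPM to 29.1, 27.4 and 27.1 TPM, with a log2 fold change of −1.16 (SE 0.16, adjusted p = 0.0252). It overlaps another gene model on the same strand at a mean of 6.32 TPM, and its call was kept without control replicate 1 (adjusted p = 0.0206) or control replicate 3 (0.0239) and lost without each of the other 4 libraries (0.101 to 0.153).

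The translation factor gene *EIF2S1*, which encodes eIF2α, the substrate of PERK and GCN2, had 192, 193 and 188 TPM in control cells and 122, 119 and 133 TPM in knockdown cells. Its groups were far apart relative to their spread, with a log2 fold change of −0.61 (SE 0.13, limma adjusted p = 0.0800). *MARS1*, the methionine tRNA synthetase that overlaps *DDIT3*, had 141, 161 and 261 TPM against 111, 111 and 106 TPM, at −0.72 (adjusted p = 0.171) and −0.46 without control replicate 3. Targets of ATF4 and CHOP on the second list went both ways: of 9 tested, 5 were higher and 4 lower, with a median of 0.09, the lower ones including *CBS*, an enzyme of cysteine synthesis, at −0.61 and *EIF4EBP1*, a repressor of translation, at −0.32. Amino acid synthesis and transport each had 2 higher and 3 lower, with medians of −0.0023 and −0.06. Of the 9 tRNA synthetases on the second list, 8 were lower, with a median of −0.18, though *CARS1*, *NARS1* and *SARS1* were above 0 after quantile normalization. CARE was found for 12 of the 58 genes of the second list with a window outside chromosome 8 (20.7%). All 11 of those tested were lower, with a median of −0.20. This did not hold for *CREB3L2*, *CARS1* and *NARS1* after quantile normalization or for *CREB3L2* with arrayWeights. Nor did it hold for *TARS1*, *NARS1*, *SLC1A4* and *CREB3L2* in at least 1 fit with 1 library left out. Unlike the 4 degradation genes of the first list, the 11 tested on the second list were 5 higher and 6 lower, at a median of −0.01, and the 20 further folding and translocation genes were 12 higher and 8 lower, at 0.08.

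**Figure D5:**
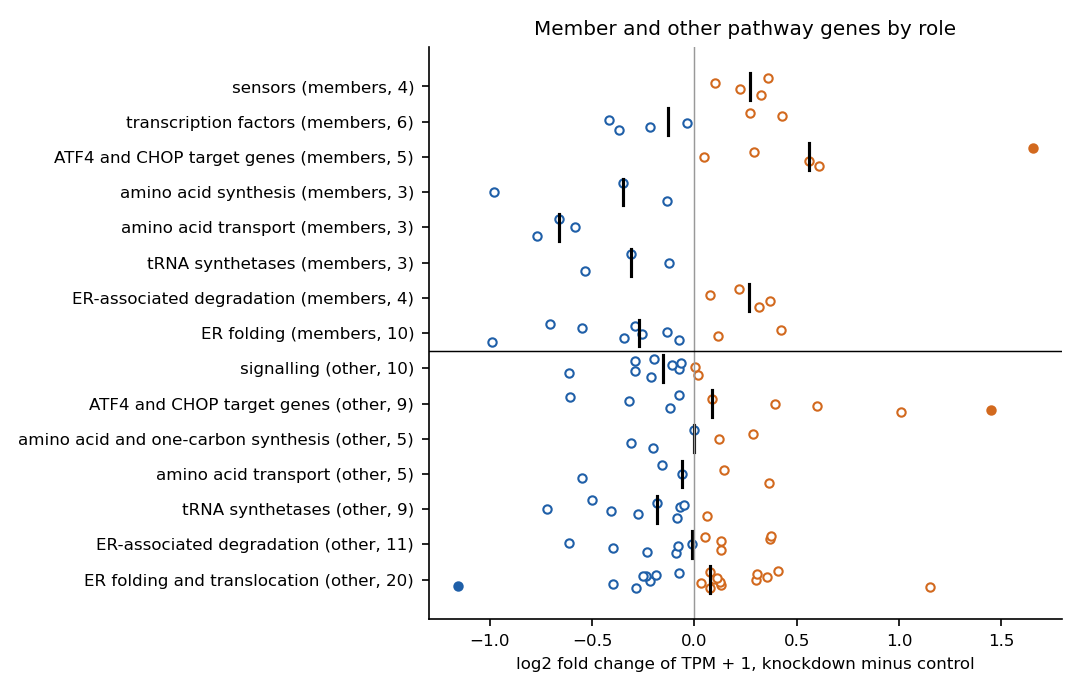
Log2 fold change of TPM + 1 by role for the 38 tested genes (above the line) and the 69 tested genes of the second list (below it), 1 point per gene, orange higher and blue lower in knockdown cells, filled where called, with black bars for the medians. Filled points are *GDF15*, *DDIT4* and *DNAJB11*; the median is 0.56 for the ATF4 and CHOP target genes of the first list and −0.66 for its transporters.

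A 7-base sequence in 3′UTRs, GAGTGAA, was also counted, because it had been found among genes lower in these libraries and is therefore no independent evidence here. It occurs in the 3′UTR of the canonical transcript of 4 of the 38 genes (10.5%: *ATF6*, *PDIA3*, *SEL1L* and *SLC3A2*) and of 11 of the 69 further genes (15.9%), against 12.5% of 11539 tested genes with a 3′UTR and 48.8% of the 86 of these called lower. Of the 4 genes, *SLC3A2* was lower in knockdown cells, at −0.58 on the log2 scale. *ATF6*, *PDIA3* and *SEL1L* were higher, at 0.36, 0.12 and 0.07, though *PDIA3* and *SEL1L* turned negative without control replicate 3. The 7 bases open the 3′UTR of *DNAJB11*, on chromosome 3. The shares of the first and second list, 10.5% and 15.9%, were near the 12.5% of all tested genes. The sites shown are of *SLC3A2* and *DNAJB11*, which were both lower. They were picked for that direction and do not stand for the other genes with the 7 bases.
*SLC3A2* 3′UTR, from the 5′ flank: tgcagattatGAGTGAAcccccaaata
*DNAJB11* 3′UTR, first bases: GAGTGAAtaaaattgga
Capitals mark the 7 bases. Its part in the levels of either gene was not tested.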

How the data were processed

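Poly-A selected RNA of 6 libraries was sequenced. By their methods, the authors trimmed reads with fastp, aligned them with STAR and quantified genes with RSEM; their processing notes instead name HISAT2 (2.0.5) and hg38. The deposited values are TPM per gene. GENCODE Release 45 is named in the methods, but the identifiers, version numbers included, are all found in Release 44 (62700 of 62700), which gave names and positions.

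log2(TPM + 1) was fitted in limma 3.58.1 under R 4.3.3 (lmFit, eBayes with trend, two-sided, no replicate block), for the 14020 genes whose mean reached 1 TPM, with Benjamini–Hochberg adjustment over all of them. Same-numbered libraries of the 2 groups deviated together with correlations of 0.41, 0.04 and 0.28, which does not show that the numbers pair the samples. The fit was run on simulated data with noise drawn independently for each gene and library. The simulated data held no GC trends, so they do not vouch for the calls in these libraries. The genes, lists and motifs were chosen with earlier results of these data known. Values by library are given for all sensors and transcription factors, for each of the 39 genes with an unadjusted p under 0.05 or without overlap of the groups, and for some others; on the second list, for *HSPA5*, *HSP90B1*, *DNAJB9*, called genes and the 3 largest differences in each direction with an unadjusted p under 0.05. The pseudocount (0.1, 5), the filter (none, 5 TPM), the scaling (quantiles, median of ratios, mitochondrially encoded genes left out), the variance model (no trend, robust, arrayWeights), the threshold (0.1), a replicate block, GC trends (loess, span 0.3, removed alone or with the block) and the libraries (each left out) were varied.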

Additional observations from a re-analysis of the deposited data

How the results depend on the processing

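Depth is unknown, so the precision rests on 3 libraries per group. Of the 39 genes, the number called was 1 as reported, 0 without a filter (14 at an unadjusted p under 0.05), 0 with eBayes without trend (9 unadjusted), 18 with arrayWeights, 7 with GC trends removed, 3 at an adjusted p under 0.1, and 0 to 4 with 1 library left out. It was 4 without control replicate 1 and 0 without each of the other 5, with 8 to 15 unadjusted. On the second list, 2 genes were called as reported, 0 without a filter (15 unadjusted), 1 with eBayes without trend, 3 with either median-of-ratios scaling or quantile normalization, 15 with arrayWeights, 8 with GC trends removed, 6 at an adjusted p under 0.1, and 0 to 4 with 1 library left out. With a replicate block, 6 of the first and 6 of the second list were called, and with the replicate block and GC trends removed, 8 and 10. Over all genes the calls were 52 higher and 94 lower as reported, 68 and 68 with median-of-ratios scaling and 78 and 83 with quantile normalization. The whole table moved likewise, from 146 of 14020 genes to 3218 with arrayWeights, 1286 with GC trends removed and 455 at an adjusted p under 0.1. It had 861 with a replicate block, 1137 with the block and GC trends removed, 103 with eBayes without trend and 13 without a filter. Without control replicate 1 it had 489, without control replicate 3 it had 160, and otherwise 12 to 18 with 1 library left out. The median of the first list was 0.0404 with quantile normalization. *RAB30-DT* kept its direction and did not pass the threshold in any fit, with log2 fold changes of −0.70 to −0.30 with 1 library left out.

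Of the 38 genes, 27 kept their sign under every alternative and 11 did not. With quantile normalization the log2 fold change was 0.0015 for *ATF4*, 0.0396 for *ATF3*, 0.0322 for *GARS1*, 0.0658 for *CALR* and 0.0411 for *PDIA6*. With arrayWeights it was 0.36 for *ATF3*, 0.0236 for *ASNS* and −0.0688 for *SEL1L*. With 1 library left out it ranged from −0.18 to 0.36 for *EIF2AK4*, −0.50 to 0.71 for *ATF3*, −0.0382 to 0.58 for *CEBPB*, −0.45 to 0.75 for *PPP1R15A*, −0.39 to 0.19 for *ASNS*, −0.28 to 0.0580 for *GARS1*, −0.0681 to 0.19 for *SEL1L*, −0.16 to 0.0125 for *CALR*, and −0.11 to 0.33 for *PDIA3*, and on the second list from −0.20 to 0.35 for *HSP90B1*. The cause was not tested.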
